A study of Mus musculus with 21 samples.

Results

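The genes described here build the protein coat of lipid droplets or take part in the breakdown of the triglyceride stored inside them. They are 10 genes chosen by name: the perilipins Plin2, Plin3, Plin4 and Plin5, the CIDE genes Cidea, Cideb and Cidec, the lipase genes Pnpla2 and Pnpla3, and G0s2, which encodes a lipase inhibitor. Each symbol matched 1 Ensembl ID of the 52636 in the count table, and 10 of the 10 genes were among the 17104 that passed the filter on low counts. The study sequenced liver RNA of wild-type mice on 2 diets. The chow group held 5 livers from animals kept for 8 weeks on normal chow, named week 0 in the labels. The other groups held 8 livers each, taken after 8 or 16 weeks on CDA-HFD, a high-fat diet without choline and with a defined amino acid content that leads to steatohepatitis with fibrosis. The 16-week group has no chow livers of its own age, so ageing and the length of feeding cannot be told apart in it, and choline, amino acid and fat content changed together. The labels give no sex, age or strain, and they do not state that each library is a separate mouse, so p-values measure the spread between these libraries.

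Lipid droplets are stores of neutral lipid wrapped in a single layer of phospholipid, and perilipins and CIDE proteins sit on that layer. Perilipins limit the access of lipases, and CIDE proteins gather where droplets touch and pass lipid from the smaller to the larger droplet. Adipose triglyceride lipase, the product of Pnpla2, starts the breakdown of triglyceride and is turned on by its partner Abhd5 and held back by G0s2. In hepatocytes the coat is formed mainly by Plin2, while Cidec and Cidea are known for high levels in fat tissue and for appearing in fatty livers.

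Total counts per library ran from 29037525 to 48901145. Levels are given as CPM, counts scaled to a common library size with TMM factors, which adjust for differences in composition. Scaling by total counts alone moved the median log2 change of all genes by 0.12 for the 8-week and 0.53 for the 16-week group set against chow, and by 0.38 between the CDA-HFD groups. The share of called genes that were higher then went from 60.1% to 78.3%, from 56.6% to 89.5% and from 49% to 94.8%. All log2 changes here are therefore relative to the bulk of genes. Hepatocyte transcripts (6 genes, the albumin gene Alb among them) summed to 69636 to 334268 CPM. Of these genes Hnf4a (-0.95 and -1.20), Cps1 (-1.48 and -1.72) and Ass1 (-0.93 and -1.25) were lower than on chow at 8 and 16 weeks (edgeR adjusted p of 0.000702 or lower in each). The other 3 did not follow them at 8 weeks. Apoa1 was then higher (1.35, edgeR adjusted p = 0.0355), and Alb (0.40) and Ttr (0.19) were not called. At 16 weeks Ttr was lower (-0.88, edgeR adjusted p = 0.0233), and Alb (-0.40) and Apoa1 (-0.38) were not called. Macrophage markers summed to 313 to 429 CPM on chow, to 1394 to 6821 CPM after 8 weeks and to 2737 to 4780.0 CPM after 16 weeks, with no overlap between chow and CDA-HFD. The part of these shifts in the changes of members and related genes was not tested. Replicate 3 of the 8-week group stood apart. Its TMM factor was 0.4955 against 0.8109 to 1.2961 elsewhere, and it was the highest of its group in the summed markers of hepatocytes (334268 CPM), macrophages (6821 CPM), adipocytes (421 CPM), brown adipocytes (38.5 CPM), skeletal muscle (2608 CPM) and squamous epithelium (1755 CPM). Exocrine pancreas transcripts summed to 8537 and 405 CPM in replicates 4 and 5 of that group. In bulk tissue, fewer cells of a type and less RNA per cell cannot be told apart.

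Promoter sequences are shown for Cidec and Plin3, 2 members that rose in both comparisons with chow, and for Plin2, the most abundant perilipin, whose change passed the test in neither. Cidec has 2 RefSeq starts 996 bases apart, and both are given. Each run is the 250 bases before the start, read 5′ to 3′ on the minus strand of GRCm38.p6, from RefSeq. Capitals mark matches to the CCAAT box, to the GC box, or, with up to 3 mismatches, to a direct repeat, on either strand. The repeat is AGGTCA written 2 times with any 1 base between, the form that PPAR and RXR receptors bind as a pair.
Cidec, upstream start, chr6:113435761-113436010: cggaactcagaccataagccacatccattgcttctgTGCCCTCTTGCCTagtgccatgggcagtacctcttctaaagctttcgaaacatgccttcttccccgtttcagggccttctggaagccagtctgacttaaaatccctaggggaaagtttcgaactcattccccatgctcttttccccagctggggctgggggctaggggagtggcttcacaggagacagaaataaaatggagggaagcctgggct
Cidec, inner start, chr6:113434765-113435014: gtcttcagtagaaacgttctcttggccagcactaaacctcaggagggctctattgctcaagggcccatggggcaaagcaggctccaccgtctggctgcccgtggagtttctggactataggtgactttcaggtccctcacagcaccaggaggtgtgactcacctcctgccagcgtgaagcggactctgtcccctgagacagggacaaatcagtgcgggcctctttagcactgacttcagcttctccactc
Plin2, chr4:86670060-86670309: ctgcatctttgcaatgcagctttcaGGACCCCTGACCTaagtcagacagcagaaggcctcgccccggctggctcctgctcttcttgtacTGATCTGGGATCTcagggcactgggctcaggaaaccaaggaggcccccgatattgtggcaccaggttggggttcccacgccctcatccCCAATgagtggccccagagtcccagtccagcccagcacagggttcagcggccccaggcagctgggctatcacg
Plin3, chr17:56290512-56290761: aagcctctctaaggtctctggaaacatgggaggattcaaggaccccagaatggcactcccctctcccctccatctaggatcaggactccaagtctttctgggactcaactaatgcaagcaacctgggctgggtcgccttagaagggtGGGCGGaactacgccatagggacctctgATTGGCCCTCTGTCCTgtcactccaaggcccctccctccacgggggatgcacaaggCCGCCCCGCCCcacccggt
The Plin2 window held 1 match to the direct repeat with 2 mismatches, which 3.24% of 32851 promoters also held, and 1 further match with 3. The upstream Cidec window and the Plin3 window each held 1 match with 3 mismatches, found in 21.3% of promoters, and in Plin3 it overlapped the reversed CCAAT box. The search also covered the TATA box (TATAAA), which 12.4% of promoters held, and the E-box (CACGTG), which 6.02% held. None of these 5 motifs stood in the inner Cidec window. The CCAAT box was present in 33.8% of promoters and the GC box (GGGCGG) in 32.7%. The Plin3 start lies inside the longer gene of GENCODE M21, and the 4 windows hold at most 1 base of an annotated exon. Plin4 also rose in both comparisons with chow. Its window, not shown, held a reversed CCAAT box and no match to the direct repeat. The upstream Plin5 window, also not shown, held 1 match to the repeat with 3 mismatches. These matches are letters in a window, not measured binding. RefSeq entries were matched for 9 of the 10 members.

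After 8 weeks of CDA-HFD, 3 members had risen against chow and 0 had fallen (edgeR quasi-likelihood test, Benjamini-Hochberg adjusted p under 0.05 over all genes). These were the coat genes Plin3 and Plin4 and the CIDE gene Cidec. By the same test 51.3% of all genes were called, 30.8% higher and 20.5% lower, so 3 of 10 is below the share of all genes called. After 16 weeks the same 3 genes were higher than on chow and 0 members were lower, where 51.9% of all genes were called, 29.4% higher and 22.5% lower. In the fit of all 21 libraries no member was lower in those 2 comparisons at an unadjusted p under 0.05, and 0 were lower by the DESeq2 Wald test. Some alternative fits, given below, called Plin5 lower at 16 weeks against chow. From 8 to 16 weeks Cidec rose further and Plin5 and Cideb fell, against 21.6% of all genes called, 10.6% higher and 11.0% lower. The median log2 change of the 10 members was 0.44, 0.15 and -0.30 in the 3 comparisons, and that of all genes 0.16, 0.03 and 0.00. With total counts alone, 6 members were called higher at 8 weeks and 7 at 16 weeks against chow.

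**Figure D1:**
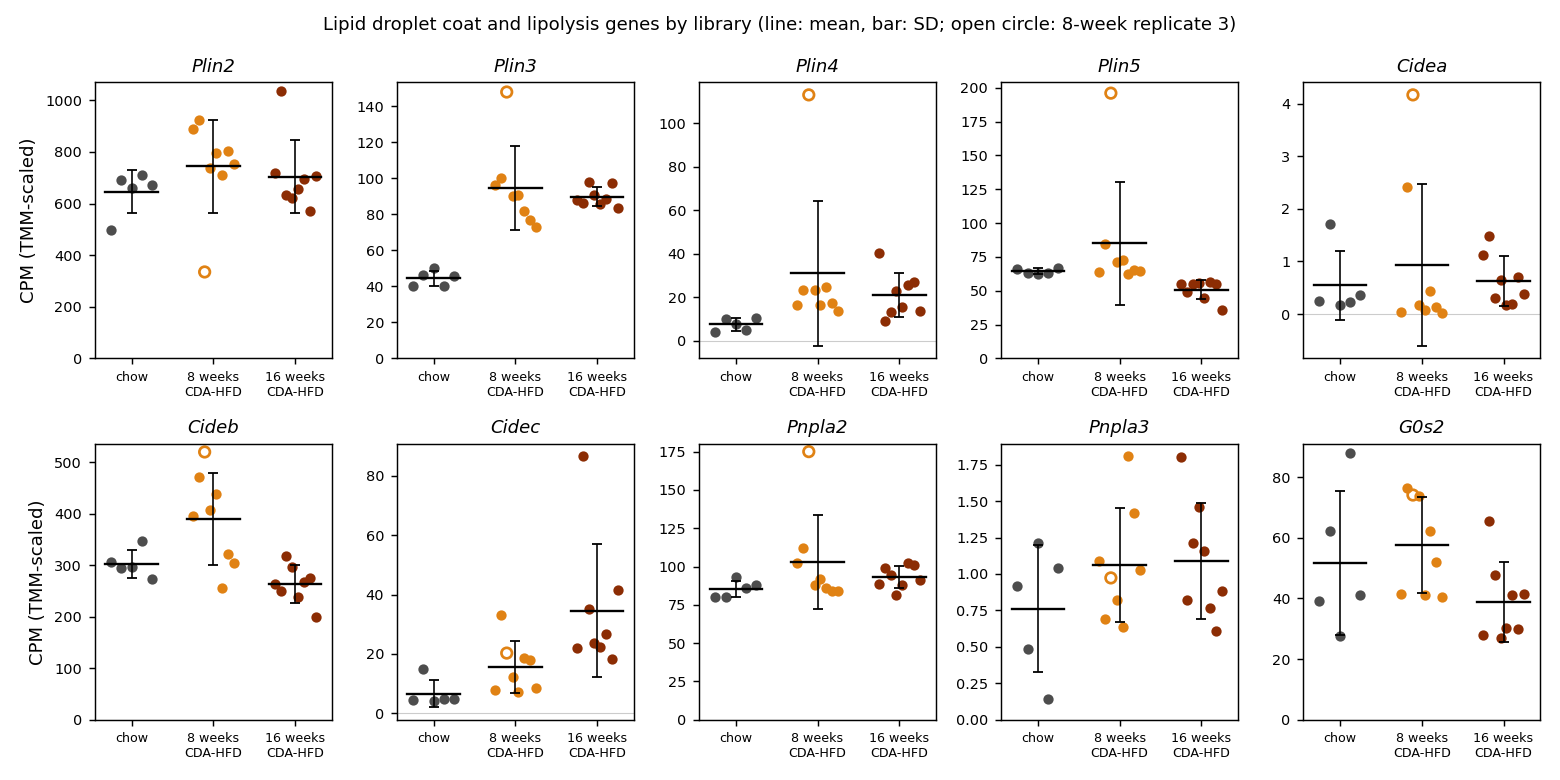
CPM of the 10 genes in each library on linear axes, 1 panel per gene, with 5 chow, 8 8-week and 8 16-week libraries as points. Lines mark the mean, bars the SD and open circles 8-week replicate 3. Plin3 lies between 40.4 and 50.0 CPM on chow and above 73 CPM in each CDA-HFD library, while 8-week replicate 3 stands apart for Plin2 (335 CPM), Plin4 (113 CPM) and Plin5 (196 CPM).

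Plin2 (ENSMUSG00000028494, chromosome 4: 86648386-86670060) encodes the main coat protein of hepatocyte droplets. Its 5 chow libraries held 499.5, 691, 661, 709 and 671 CPM. The 8-week libraries ran from 335 over a median of 775 to 923 CPM, and the 16-week libraries from 572 over 675 to 1035 CPM. The groups overlapped, and the lowest value of all came from 8-week replicate 3. The other 7 8-week libraries held 710.1 to 923 CPM, each above the highest chow library. The 8-week change against chow was nonetheless called in 0 of 21 fits that left out 1 library, with values of 0.12 to 0.30. The log2 change was 0.20 ± 0.19 (SE) at 8 weeks (edgeR adjusted p = 0.369), 0.12 ± 0.19 at 16 weeks (adjusted p = 0.611) and -0.08 ± 0.16 from 8 to 16 weeks (adjusted p = 0.761). Plin2 was thus not shown to change in any comparison. Without the 5 libraries highest in squamous transcripts (8-week replicates 3 and 6, 16-week replicates 1, 4 and 7), its 8-week change was 0.34 with an edgeR adjusted p of 0.0344. With total counts alone its 16-week change was 0.65 (edgeR adjusted p = 0.0385).

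Plin3 (ENSMUSG00000024197, chromosome 17: 56277476-56292873) encodes a coat protein that moves between the cytosol and small, new droplets. It was measured at 40.4, 46.3, 50.0, 40.4 and 45.5 CPM on chow. After 8 weeks its libraries ran from 73.2 over a median of 90.4 to 148 CPM, and after 16 weeks from 83.4 over 88.2 to 98.1 CPM. Each CDA-HFD library was above each chow library, and the highest was 8-week replicate 3. Mean levels were 44.5 ± 4.14 (SD, n = 5), 94.6 ± 23.4 (n = 8) and 89.9 ± 5.41 CPM (n = 8), a 2.12-fold and a 2.02-fold difference from chow. The log2 change was 1.09 ± 0.14 (SE) at 8 weeks (edgeR adjusted p = 2.17e-06) and 1.01 ± 0.14 at 16 weeks (edgeR adjusted p = 2.70e-06). Leaving out each library in turn kept both calls in 21 of 21 fits, with changes of 0.95 to 1.13 and 0.98 to 1.06. Between 8 and 16 weeks the change was -0.07 (edgeR adjusted p = 0.680), and it was 0.38 (adjusted p = 0.00430) with total counts alone.

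Plin4 (ENSMUSG00000002831, chromosome 17: 56100591-56109803), whose protein is best known on droplets of fat and muscle cells, was the least abundant of the 4 perilipins described here. The chow libraries held 4.30, 10.2, 7.69, 5.18 and 10.6 CPM. The 8-week libraries ran from 13.9 over a median of 20.2 to 113 CPM, and the 16-week libraries from 8.99 over 19.1 to 40.3 CPM. All 8-week libraries exceeded the chow libraries, whereas 16-week replicate 2 lay within the chow range. Plin4 had risen by 8 weeks with a log2 change of 2.02 ± 0.50 (edgeR adjusted p = 0.00253) and by 16 weeks with 1.46 ± 0.49 (edgeR adjusted p = 0.0165). The 8-week value rested in part on replicate 3, and without that library it was 1.34 ± 0.31 (edgeR adjusted p = 0.00117). Without it the mean 8-week level was 19.4 ± 4.34 CPM (n = 7) in place of 31.1 ± 33.2 CPM (n = 8).
Libraries high in Plin4 included some with more muscle and adipocyte transcripts. The 16-week libraries with the highest Plin4, replicates 1 and 7 at 40.3 and 27.2 CPM, held 389 and 221 CPM of skeletal muscle markers (10 genes) against a group median of 25.7. Their adipocyte markers (6 genes) summed to 40.4 and 13.0 CPM against a median of 6.15. Replicate 6, next in Plin4 at 25.9 CPM, had the lowest muscle sum of its group, 6.56 CPM. On chow, replicate 5 had both the highest Plin4 (10.6 CPM) and the highest muscle (377 CPM) and adipocyte (40.2 CPM) sums. Over whole groups the adipocyte sum ran from 6.63 to 40.2 CPM on chow, from 4.92 to 421 CPM after 8 weeks and from 3.54 to 40.4 CPM after 16 weeks, and the muscle sum from 0.666 to 377, 1.03 to 2608 and 6.56 to 389 CPM. Without the 5 libraries highest in squamous transcripts, which include replicates 1, 4 and 7 of the 16-week group, Plin4 remained higher, by 1.28 at 8 weeks (edgeR adjusted p = 0.000749) and by 1.03 at 16 weeks (edgeR adjusted p = 0.00367). The highest adipocyte sum, 421 CPM in 8-week replicate 3, was mostly Cfd at 377 CPM. The part of fat and muscle transcripts in the Plin4 difference was not otherwise tested.

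Plin5 (ENSMUSG00000011305, chromosome 17: 56111601-56117596) encodes the perilipin of oxidative tissues, which links droplets to mitochondria and binds both Pnpla2 and Abhd5 proteins. It is the neighbour of Plin4 on the same strand, 1797 bases away, and Plin3 lies 159879 bases further along. Its chow libraries lay close together at 66.4, 62.9, 62.6, 63.0 and 66.9 CPM. The 8-week libraries ran from 62.5 over 68.1 to 196 CPM, and the 16-week libraries from 36.1 over 54.8 to 56.7 CPM. Each 16-week library was thus below each library of both other groups. Plin5 fell between 8 and 16 weeks, with a log2 change of -0.74 ± 0.20 (edgeR adjusted p = 0.0131) that was -0.44 (edgeR adjusted p = 0.00156) without 8-week replicate 3. Against chow, the 16-week change of -0.34 ± 0.22 did not pass the test (edgeR adjusted p = 0.213), and it was again -0.34 but called (adjusted p = 0.00429) when 8-week replicate 3 was left out of the fit. It was also called in the fit of the 2 groups alone (-0.36, edgeR adjusted p = 0.00472). Leaving out 8-week replicates 3, 4 and 5 gave -0.34 (edgeR adjusted p = 0.00636). Leaving out the 5 libraries highest in squamous transcripts gave -0.41 (edgeR adjusted p = 0.00398). The Plin5 results depended on scaling: with total counts alone the 16-week change against chow was 0.18 (edgeR adjusted p = 0.225), and the change between 8 and 16 weeks was -0.22 and no longer called (adjusted p = 0.126).

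Libraries of 2 groups did not overlap for Plin3 and Plin4 at 8 weeks against chow, that is 2 of 10 members against 30.1% of all genes. At 16 weeks against chow this held for Plin3, Cidec and Plin5, or 3 of 10 against 50.5%. From 8 to 16 weeks it held for Plin5 alone, or 1 of 10 against 3.09%.

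Set against the sum of the 4 perilipins per kilobase of exon, Plin2 made up 80.5% ± 2.33 (SD, n = 5) on chow, 74.2% ± 14.5 (n = 8) after 8 weeks and 79.1% ± 3.79 (n = 8) after 16 weeks. The share of Plin3 was 5.19% ± 0.558, 8.95% ± 2.80 and 9.60% ± 1.55, and that of Plin5 was 13.7% ± 1.99, 14.8% ± 9.38 and 9.83% ± 1.95. Plin4 held 0.570% ± 0.185, 2.01% ± 2.38 and 1.48% ± 0.724. In 8-week replicate 3 the Plin2 share was 38.4% and the Plin5 share 38%. Plin2 therefore remained the leading perilipin transcript in the mean of every group.

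Cidea (ENSMUSG00000024526), a droplet fusion gene of brown fat, was close to the limit of detection, with 1 to 87 counts per library. It was measured at 0.257, 1.72, 0.169, 0.232 and 0.356 CPM on chow, from 0.0215 over 0.146 to 4.17 CPM after 8 weeks and from 0.176 over 0.512 to 1.49 CPM after 16 weeks. The groups overlapped widely and no change passed the test, with edgeR adjusted p-values of 0.594, 0.893 and 0.724. The 8-week log2 change was 0.65 with all libraries and -0.25 without replicate 3. The highest library was 8-week replicate 3, which also held the most Ucp1, the brown fat uncoupling protein gene, at 37.8 CPM. The next, 8-week replicate 2 with 2.41 CPM of Cidea, held 9.25 CPM of Ucp1, whereas chow replicate 2 had 1.72 CPM of Cidea with Ucp1 at 0. Brown adipocyte markers (3 genes) summed to 0 to 0.466 CPM on chow, 0.0215 to 38.5 CPM after 8 weeks and 0.0705 to 4.05 CPM after 16 weeks, and their part in Cidea levels was not tested.

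Cideb (ENSMUSG00000022219, chromosome 14: 55754050-55758458) encodes the CIDE protein of hepatocytes, known for its role in loading lipid onto very-low-density lipoprotein. The chow libraries held 306, 294, 297, 347 and 273 CPM. The 8-week libraries ran from 256 over 402 to 520.2 CPM, and the 16-week libraries from 200.0 over 265 to 319 CPM. Values after 8 weeks spread to both sides of the chow range, and 16-week values lay mostly below those of 8 weeks. Cideb fell between 8 and 16 weeks by 0.56 on the log2 scale (SE 0.13, edgeR adjusted p = 0.00572). At 8 weeks against chow the change was 0.36 ± 0.15 (edgeR adjusted p = 0.0524), and at 16 weeks -0.20 ± 0.15 (edgeR adjusted p = 0.272). The 8-week change was called in 5 of 21 fits that left out 1 library (edgeR adjusted p from 0.0141 to 0.114). It was also called with the filter at a mean of 1 CPM (edgeR adjusted p = 0.0366) and without the 5 libraries highest in squamous transcripts (adjusted p = 0.0243). With total counts alone Cideb was higher at 8 weeks (0.45, edgeR adjusted p = 0.00723) and at 16 weeks (0.33, edgeR adjusted p = 0.0348), and its change between them was -0.12 (edgeR adjusted p = 0.383). The exons of Cideb share 1136 bases, 76.3% of their length, with Nop9 on the opposite strand. Whether strand was used in counting is not given in the sources used here, and without it reads from the pair cannot be told apart. Nop9 itself was at 24.7 ± 1.34, 23.2 ± 2.76 and 21.6 ± 0.970 CPM and was called in no comparison (edgeR adjusted p = 0.432, 0.0891 and 0.377).

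Cidec (ENSMUSG00000030278, chromosome 6: 113424634-113435760), which encodes the protein that drives growth of large droplets in white fat, rose most at 16 weeks. It was measured at 4.45, 14.9, 4.15, 4.98 and 4.96 CPM on chow. After 8 weeks it ran from 7.16 over a median of 15.1 to 33.0 CPM, and after 16 weeks from 18.4 over 25.3 to 86.5 CPM. Chow replicate 2 lay within the 8-week range, while each 16-week library was above each chow library. Mean levels were 6.69 ± 4.61 (SD, n = 5), 15.7 ± 8.76 (n = 8) and 34.6 ± 22.3 CPM (n = 8). The log2 change was 1.23 ± 0.45 at 8 weeks (edgeR adjusted p = 0.0272), 2.37 ± 0.47 at 16 weeks (edgeR adjusted p = 0.000245) and 1.14 ± 0.38 from 8 to 16 weeks (edgeR adjusted p = 0.0361). The means at 16 weeks and on chow differed 5.17-fold.
The call at 16 weeks against chow was kept in 21 of 21 fits that left out 1 library, with changes of 2.02 to 2.90. The 8-week call was lost in 5 of these fits (without chow replicate 1, 3, 4 or 5, or 8-week replicate 2), with adjusted p up to 0.0702 by edgeR. The call between 8 and 16 weeks was lost in 6 (without 8-week replicate 1, 4, 5 or 8, or 16-week replicate 2 or 8), with adjusted p up to 0.103 by edgeR. Without 16-week replicate 2, the library at 86.5 CPM, that change was 0.79. Without the 5 libraries highest in squamous transcripts the 8-week change was 1.11 and not called (edgeR adjusted p = 0.0554), and without 8-week replicates 3, 4 and 5 the change between 8 and 16 weeks was 1.02 and not called (edgeR adjusted p = 0.125). Cidec is also a gene of fat tissue. Replicate 2 was the library highest in Cidec in each group. Its adipocyte marker sum was 6.63 CPM on chow and 3.54 CPM after 16 weeks, each the lowest of the group, and 22 CPM after 8 weeks, above the group median of 14.4. The part of fat transcripts in Cidec levels was not tested.

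The 3 CIDE genes differed in share as well. Per kilobase of exon, Cideb made up 98.0% ± 1.48 (SD, n = 5) of their sum on chow, 96.6% ± 1.83 (n = 8) after 8 weeks and 90.3% ± 5.72 (n = 8) after 16 weeks. The share of Cidec was 1.74% ± 1.20, 3.19% ± 1.66 and 9.46% ± 5.62, with a highest value of 21.5% in the 16-week group. Within-library ratios, which do not depend on library scaling, were compared with exact two-sided permutation tests. The log2 ratio of Cidec to Cideb was -5.69 on chow, -4.78 after 8 weeks and -3.10 after 16 weeks. It was higher at 16 weeks than on chow by 2.59 (exact p = 0.000777, the smallest this design allows, Benjamini-Hochberg adjusted p = 0.00291 over 15 tests) and than at 8 weeks by 1.68 (exact p = 0.000466, adjusted p = 0.00291). The difference of 0.91 at 8 weeks did not pass (exact p = 0.0777, adjusted p = 0.146). It was 1.25 without chow replicate 2 (unadjusted exact permutation p = 0.0162) and 1.07 without 8-week replicate 5 (unadjusted exact p = 0.0417). The outcome was the same in 14 of 16 alternatives.

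**Figure D2:**
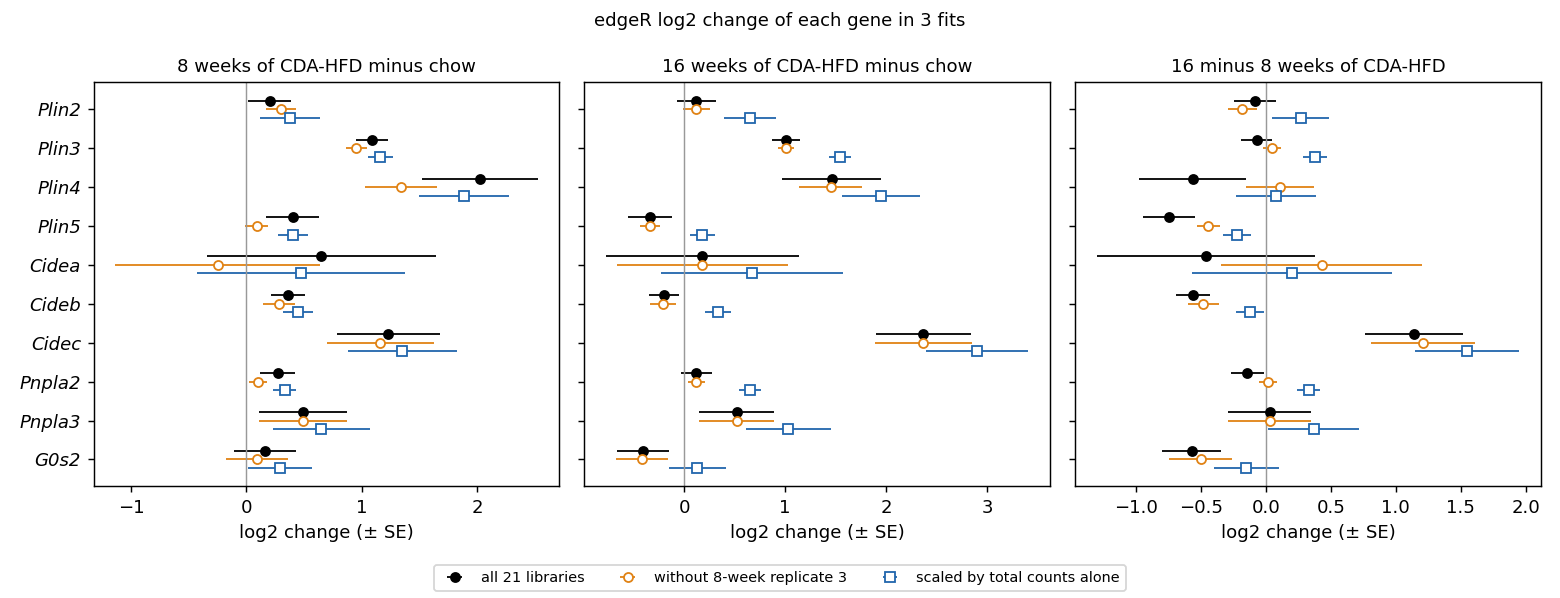
edgeR log2 change of each of the 10 genes with its SE in the 3 comparisons, for all libraries, without 8-week replicate 3, and with total counts alone. Cidec and Plin3 are higher than chow in each fit, whereas Plin5 and Cideb at 16 weeks against chow lie below 0 with TMM scaling and above 0 with total counts alone.

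Pnpla2 (ENSMUSG00000025509, chromosome 7: 141455198-141460743), the gene of adipose triglyceride lipase, was measured at 80.0, 80.0, 92.9, 85.8 and 88.0 CPM on chow. The 8-week libraries ran from 83.8 over 89.9 to 175 CPM and the 16-week libraries from 81.3 over 92.7 to 102 CPM. The groups overlapped, and 8-week replicate 3 was the highest library. The log2 change was 0.27 ± 0.15 at 8 weeks (edgeR adjusted p = 0.133) and 0.12 ± 0.15 at 16 weeks (edgeR adjusted p = 0.505). With total counts alone these were 0.33 (edgeR adjusted p = 0.0146) and 0.65 (adjusted p = 1.88e-05).

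Pnpla3 (ENSMUSG00000041653, chromosome 15: 84167837-84187236), a relative of Pnpla2 that coats droplets and whose human counterpart is tied to fatty liver disease, was low throughout, at 5 to 101 counts per library. It was measured at 0.919, 0.488, 1.21, 0.145 and 1.04 CPM on chow, from 0.636 over 1.0 to 1.81 CPM after 8 weeks and from 0.609 over 1.02 to 1.80 CPM after 16 weeks. Groups overlapped and no change passed the test: 0.49 ± 0.38 at 8 weeks (edgeR adjusted p = 0.284) and 0.52 ± 0.37 at 16 weeks (edgeR adjusted p = 0.259). With total counts alone the 16-week change was 1.03 (edgeR adjusted p = 0.0416).

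G0s2 (ENSMUSG00000009633, chromosome 1: 193272161-193273217), the inhibitor of adipose triglyceride lipase, varied widely even on chow, at 39.2, 62.4, 27.6, 87.9 and 41.3 CPM. The 8-week libraries ran from 40.6 over 57.1 to 76.3 CPM and the 16-week libraries from 27.0 over 35.6 to 65.4 CPM. All groups overlapped, with most 16-week libraries in the lower part of the range. Between 8 and 16 weeks the log2 change was -0.57 ± 0.23 (edgeR adjusted p = 0.0799), and without 16-week replicate 2, the highest of its group, it was -0.72 and passed (edgeR adjusted p = 0.0369). Against chow it was 0.16 ± 0.27 (edgeR adjusted p = 0.629) and -0.41 ± 0.26 (edgeR adjusted p = 0.200), and with total counts alone the latter was 0.13.

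The balance of lipase to partners was measured as ratios. The log2 ratio of Pnpla2 to its co-activator Abhd5 was 0.38 on chow, 1.4 after 8 weeks and 1.49 after 16 weeks. It was higher than on chow by 1.01 at 8 weeks, a 2.02-fold difference, and by 1.10 at 16 weeks, a 2.15-fold difference (each exact permutation p = 0.000777, the smallest possible, adjusted p = 0.00291). With TMM scaling Abhd5 was, of the 2 genes, the one whose change passed the test. It fell from 66.5 ± 14.9 CPM on chow (SD, n = 5) to 39.3 ± 13.6 CPM (n = 8) and 33.2 ± 2.49 CPM (n = 8). Its log2 change was -0.76 ± 0.17 at 8 weeks (edgeR adjusted p = 0.00128) and -1.0 ± 0.17 at 16 weeks (edgeR adjusted p = 5.47e-05). With total counts alone Abhd5 changed by -0.70 (edgeR adjusted p = 0.000238) and -0.47 (adjusted p = 0.00451). Pnpla2 was then called higher at both times, by 0.33 (edgeR adjusted p = 0.0146) and 0.65 (adjusted p = 1.88e-05). The ratio of Pnpla2 to G0s2 stood at 0.84 on chow, 0.84 after 8 weeks and 1.32 after 16 weeks. Its rise of 0.49 from 8 to 16 weeks had an exact permutation p of 0.0315, which did not pass after adjustment (0.0789), and its difference of 0.48 from chow had an exact p of 0.135. The ratio of Plin2 to Plin5 was higher at 16 weeks than on chow by 0.47 (exact permutation p = 0.0264, adjusted p = 0.0789). The ratio of Pnpla3 to Pnpla2 differed by 0.13 to 0.60 with exact permutation p of 0.261 to 0.687.

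**Figure D3:**
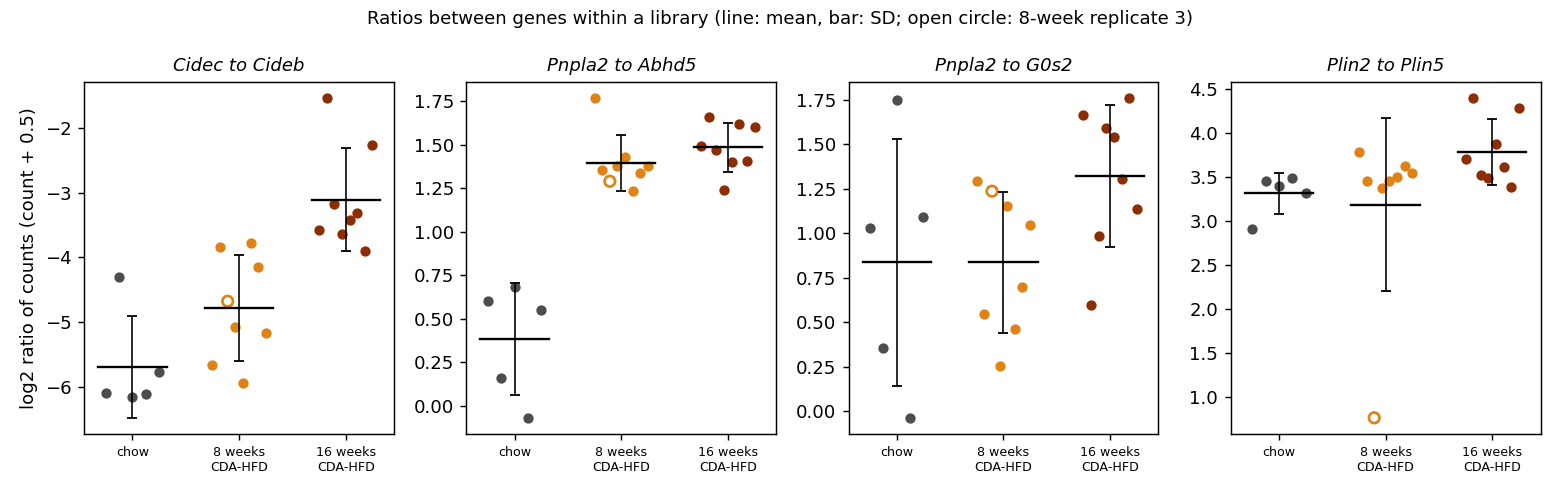
Log2 ratios of counts between pairs of genes within each library, by group (line, mean; bar, SD; open circle, 8-week replicate 3). The ratio of Pnpla2 to Abhd5 averages 0.38 on chow and 1.4 and 1.49 on CDA-HFD, and that of Cidec to Cideb climbs from -5.69 to -3.10.

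Between genes, levels were compared per kilobase of annotated exon. On chow Cideb (204 ± 18.3 CPM per kilobase, n = 5) and Plin2 (184 ± 24.0) led and overlapped. G0s2 followed at 59.3 ± 27.4, then Plin5 at 30.8 ± 1.01, Pnpla2 at 28.3 ± 1.82 and Plin3 at 11.8 ± 1.09 CPM per kilobase. G0s2 and Plin5, and Plin5 and Pnpla2, overlapped in their ranges, whereas Plin2 lay above G0s2, and Pnpla2 above Plin3, in all libraries. Cidec (3.60 ± 2.48), Plin4 (1.32 ± 0.494), Pnpla3 (0.492 ± 0.282) and Cidea (0.491 ± 0.592) were lowest, and the last 3 overlapped. After 16 weeks Plin2 (201 ± 40.5, n = 8) stood before Cideb (177 ± 24.2), with overlapping ranges, and Cidec had reached 18.6 ± 12 CPM per kilobase, overlapping Plin3 at 23.7 ± 1.43.

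Members were also compared with each other within each CDA-HFD group. In the 8-week group 19 of 45 pairs, and in the 16-week group 8 of 45, had an unadjusted exact permutation p under 0.05 by Pearson correlation. The same share among pairs of other genes was not measured. Some 8-week values rested on the 2 libraries farthest from the median of the first gene, replicate 3 among them. Without those, r went from 0.89 to 0.05 for Plin3 and Plin4, and from 0.96 to 0.13 for Plin5 and Pnpla2. It stayed at 0.80 for Plin3 and Cideb. Of 90 pairs over both groups, 1 passed by Pearson and 2 by Spearman correlation of log2 CPM (exact permutation tests, Benjamini-Hochberg adjusted). Plin3 and Pnpla2 in the 8-week group had r = 0.97 (exact p = 2.48e-05, adjusted p = 0.00223) and rho = 1.0 (exact p = 4.96e-05, adjusted p = 0.00446, n = 8). Without replicates 3 and 8, the 2 farthest from the Plin3 median, r was 0.90 (exact p = 0.0181). In the 16-week group the same pair had r = 0.26 and rho = 0.26 (exact p = 0.520 and 0.536). Plin3 and Cideb in the 16-week group had rho = 0.98 (exact p = 0.000397, adjusted p = 0.0179) with r = 0.82 (exact p = 0.0110, adjusted p = 0.0951), and r = 0.98 without replicates 3 and 7. Both are levels from the same libraries and share their scaling.

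Other genes of droplet breakdown were read against the share of all genes called. Of 13 lipases and lipase partners, 2 rose and 6 fell at 8 weeks, 1 rose and 8 fell at 16 weeks against chow, and 0 rose and 6 fell from 8 to 16 weeks, with medians of -0.38, -0.64 and -0.42 log2. Among all genes 30.8% rose and 20.5% fell at 8 weeks, 29.4% rose and 22.5% fell at 16 weeks, and 10.6% rose and 11.0% fell in between, with medians of 0.16, 0.03 and 0.00. The list had 2 rises and 5 falls, 3 and 5, and 1 and 0 when scaled by total counts alone. The carboxylesterases Ces1f and Ces1d, microsomal lipid hydrolases, fell most: Ces1f from 649.6 ± 79.3 CPM on chow to 96.5 ± 22.4 and 50.4 ± 19.0 CPM, and Ces1d from 1391 ± 257 to 210.2 ± 32.8 and 141 ± 20.5 CPM. Their log2 changes against chow were -2.75 and -3.69 for Ces1f and -2.73 and -3.31 for Ces1d, with edgeR adjusted p of 9.65e-09 or lower. Ces1 genes are near copies, and reads may be split between them in counting. Aadac, a hydrolase of the endoplasmic reticulum, fell by 1.14 at 16 weeks (edgeR adjusted p = 8.40e-07). Hilpda, a small inhibitor of adipose triglyceride lipase, rose from 2.74 ± 0.513 to 5.47 ± 2.01 and 7.28 ± 2.79 CPM, by 1.01 (edgeR adjusted p = 0.00810) and 1.41 (adjusted p = 0.000462). Pnpla7, a lysophospholipase gene, rose at 8 weeks, by 0.59 (edgeR adjusted p = 0.0207). From 8 to 16 weeks the largest falls were in Ces1f (-0.94), Ces1d (-0.58) and Abhd6 (-0.58), the last a monoacylglycerol lipase gene. The highest 8-week library held 68.5 CPM of Abhd6 against a group median of 24.9 CPM. Without 8-week replicate 3 the Abhd6 change was -0.27 (edgeR adjusted p = 0.0234), smaller than that of Aadac (-0.42). With total counts alone the Abhd6 change was -0.06 and not called (edgeR adjusted p = 0.681). At 8 weeks against chow Abhd6 was at -0.53 with all libraries (edgeR adjusted p = 0.0522). Without 8-week replicate 3 it was at -0.85 (adjusted p = 4.10e-07), and the list then had 2 rises and 7 falls.

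Of 18 genes of droplet formation and other droplet proteins, 2 rose and 5 fell at 8 weeks, 3 rose and 7 fell at 16 weeks, and 2 rose and 7 fell between them, with medians of 0.03, -0.33 and -0.23. The falls among all genes were 20.5%, 22.5% and 11.0%, and the rises 30.8%, 29.4% and 10.6%. The balance of this list turned with total counts alone, to 5 rises and 2 falls at 8 weeks, 5 and 2 at 16 weeks, and 3 and 1 between them. Tmem159, which marks sites of droplet assembly, rose by 1.35 (edgeR adjusted p = 0.000187) and 1.74 (adjusted p = 7.48e-06). Cavin1 and Cav1 encode caveolar proteins also found on droplets. Cavin1 rose by 1.21 and 1.82 (edgeR adjusted p = 2.01e-05 and 8.49e-08), and Cav1 rose at 16 weeks by 0.80 (adjusted p = 0.00272) and from 8 to 16 weeks by 1.25 (adjusted p = 0.000101). At 8 weeks Mettl7a1 (-1.10), Pcyt1a (-0.65), the rate-limiting enzyme gene of phosphatidylcholine synthesis, and Ldah (-0.62) fell most. Without 8-week replicate 3 the list had 3 rises and 7 falls at 8 weeks. Fitm1 (-0.80, edgeR adjusted p = 0.0281) and Fitm2 (-0.63, adjusted p = 0.000153) were then also called, beside -0.57 for Pcyt1a and -0.64 for Ldah. With total counts alone Pcyt1a was at -0.46 and not called (edgeR adjusted p = 0.113), while Mettl7a1 (-0.90) and Ldah (-0.49) stayed called. At 16 weeks the largest falls against chow were in Fitm1 (-1.77), Mettl7a1 (-1.08) and Fitm2 (-1.03), of which Fitm1 and Fitm2 are droplet budding genes. With total counts alone Mettl7a1 was at -0.55 and not called (edgeR adjusted p = 0.118), while Fitm1 (-1.26) and Fitm2 (-0.51) stayed called. From 8 to 16 weeks Fitm1 (-1.37), Bscl2 (-1.04) and Mettl7b (-1.02) fell most. Bscl2 and Mettl7b reached 375 and 4648 CPM in their highest 8-week library, against group medians of 65.8 and 872 CPM. Without 8-week replicate 3 their changes were -0.34 (edgeR adjusted p = 0.0248) and -0.37 (adjusted p = 0.0502), so Mettl7b was then not called. With 1 library left out, the number that fell from 8 to 16 weeks ran from 2, without 16-week replicate 8, to 8.

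Of 12 regulators of droplet genes, 0 rose and 4 fell at 8 weeks, 1 rose and 8 fell at 16 weeks, and 0 rose and 4 fell from 8 to 16 weeks, with medians of -0.42, -0.77 and -0.31. All genes had 20.5%, 22.5% and 11.0% falls and 30.8%, 29.4% and 10.6% rises. The regulators had 1 rise and 4 falls at 8 weeks, 1 and 4 at 16 weeks, and 1 and 0 between them with total counts alone. Ppara, the receptor that drives fatty acid oxidation and many droplet genes of hepatocytes, went from 116 ± 20.9 CPM to 46.3 ± 22.2 and 44.1 ± 17.9 CPM. Its log2 changes were -1.32 (edgeR adjusted p = 0.00244) and -1.39 (adjusted p = 0.00124). Ppard fell by 1.19 and 1.11, and Mlxipl, the carbohydrate-responsive factor, by 0.87 and 1.29 (edgeR adjusted p of 0.00527 or lower in each). With total counts alone Ppard at 16 weeks was at -0.58 and not called (edgeR adjusted p = 0.176). Ppara (-1.14 and -0.88) and Mlxipl (-0.77 at both times) stayed called. Without 8-week replicate 3, 6 regulators fell at 8 weeks, with Rxra (-0.44, edgeR adjusted p = 0.0115) and Srebf1 (-0.40, adjusted p = 0.0402) called as well. Pparg, the receptor that drives Cidec and Plin4 in fat cells, rose at 16 weeks by 0.56 (edgeR adjusted p = 0.0263), from 16.5 ± 5.39 to 24.3 ± 4.02 CPM. Its groups overlapped, with up to 24.7 CPM on chow and from 19.8 CPM after 16 weeks. The regulators had 1 called rise at 16 weeks against chow in 27 of 30 alternatives and 0 in the rest, some of which left out 1 library. No list had a gene that rose at an unadjusted p under 0.05 by edgeR, where its count of called rises was 0, and the DESeq2 Wald test called 0 there too. From 8 to 16 weeks Creb3l3 (-0.89), Nr1h3 (-0.79) and Rxra (-0.60) fell most. Their highest 8-week libraries held 1308, 466 and 918 CPM against group medians of 403, 143 and 507 CPM. Without 8-week replicate 3 the changes were -0.49, -0.43 and -0.45 (edgeR adjusted p of 0.0125 or lower), and with total counts alone -0.32, -0.24 and -0.13, none of them called.

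**Figure D4:**
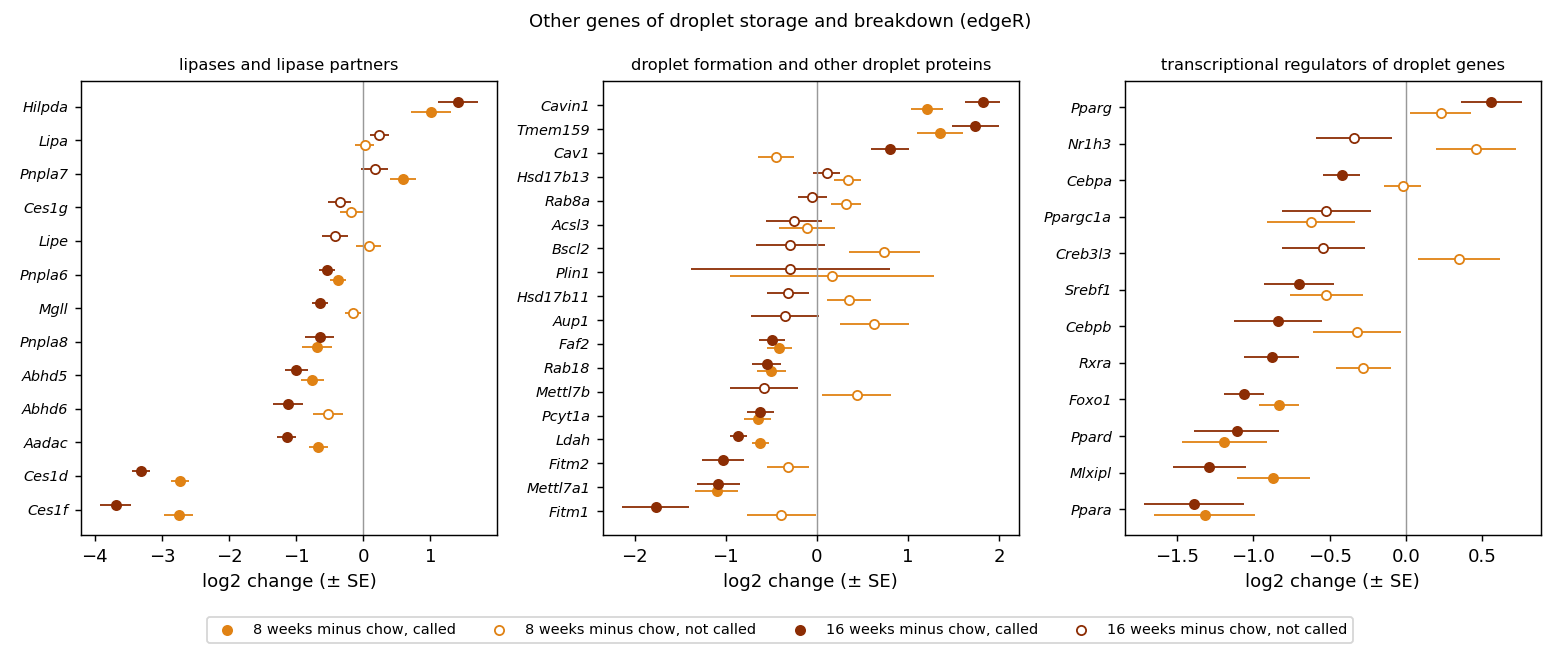
edgeR log2 change against chow of the genes in the 3 related lists, at 8 and 16 weeks, with filled points where the adjusted p is under 0.05. Ces1f and Ces1d lie lowest among the lipases, and Cavin1 and Tmem159 highest among the droplet proteins.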

How the data were processed

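Total RNA from the livers was extracted with an RNeasy kit and made into TruSeq stranded total RNA libraries, per the labels' protocols. For 21 libraries the authors deposited unnormalized read counts by Ensembl ID, and the single-sample counts matched the series table exactly in 21 of 21. Reads were assigned on GRCm38, per the submitters' processing notes. Aligner, counter, strand setting and gene annotation are not given in the sources. Symbols, coordinates and exon lengths came from GENCODE M21, which named 52489 of the 52636 IDs (99.72%), and promoters from RefSeq.

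In R 4.3.3, filterByExpr by group kept 17104 genes holding 99.961% of counts, and all 21 libraries entered 1 edgeR 4.0.16 quasi-likelihood fit with TMM factors and no covariate. Calls are genes with a Benjamini-Hochberg adjusted p under 0.05 over the 17104. Fold changes are given as log2 with SE, and CPM as group mean ± SD or as single libraries. Replicate numbers follow the order of the samples and pair nothing. Ratios were formed from counts plus 0.5 and compared with exact two-sided permutation tests in Python 3.11.15. Total counts ran from 29037525 to 48901145, and Cidea and Pnpla3, at 1 to 101 counts per library, have the fewest reads.

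The 10 members, the related lists and the marker lists were chosen with earlier results of these data known. The rule names all members, Abhd5 and Hilpda, and up to 3 called genes with the largest rise and fall per related list and comparison. It also names the 2 genes most correlated with each member. Alternatives were DESeq2 1.42.0 (size factors and the Wald test), total counts alone, no filter, a filter at a mean of 1 CPM, a fit without the third group, removal of the 20 most abundant genes, each library left out, and 2 sets of libraries left out together. The fits were tested on simulated data. Unless stated, values include all libraries. Tf, on the hepatocyte list, matched no symbol and was not used.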

Additional observations from a re-analysis of the deposited data

Results flagged for a closer look

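Within groups, 14 of 45 sets of values had 1 library farther from the others than Dixon's limit for that group size. Chance alone gives this in about 1 in 20 groups, and the members share libraries, so the 14 are not independent.

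Replicate 3 of the 8-week group accounted for 6 of them. It was lowest for Plin2 at 335 CPM, where the other 7 libraries held 710.1 to 923, and highest for Plin3 (148 CPM against 73.2 to 100.2), Plin4 (113 CPM against 13.9 to 24.8), Plin5 (196 CPM against 62.5 to 84.2) and Pnpla2 (175 CPM against 83.8 to 112). Its log2 ratio of Plin2 to Plin5 was 0.77 against 3.38 to 3.79. This library also had the smallest TMM factor and the highest muscle, adipocyte and squamous marker sums of its group, whose part in these values was not tested.

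The fusion gene Cidec stood apart in chow replicate 2 at 14.9 CPM, where the other chow libraries held 4.15 to 4.98, and in 16-week replicate 2 at 86.5 CPM against 18.4 to 41.6. Chow replicate 2 was also apart for Cidea (1.72 CPM against 0.169 to 0.356) and for the log2 ratio of Cidec to Cideb (-4.30 against -6.15 to -5.78). In 16-week replicate 2, Plin2 was high as well, at 1035 CPM against 572 to 717.

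Chow replicate 1 was low for Plin2 at 499.5 CPM against 661 to 709, and its log2 ratio of Plin2 to Plin5 was 2.91 against 3.33 to 3.49. The ratio of Pnpla2 to Abhd5 was high in 8-week replicate 1, at 1.77 against 1.24 to 1.43.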

How the results depend on the processing

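Plin3 and Plin4 at both times against chow, and Cidec at 16 weeks, were called higher under every alternative run. With total counts alone, 6 members were called at 8 weeks and 7 at 16 weeks against chow, in place of 3 and 3. That scaling also turned the 16-week change against chow of Plin5 (0.18), Cideb (0.33) and G0s2 (0.13), and the change from 8 to 16 weeks of Plin2 (0.27), Plin3 (0.38), Plin4 (0.08), Cidea (0.20) and Pnpla2 (0.33). Without 8-week replicates 3, 4 and 5, the change from 8 to 16 weeks turned for Plin3 (0.08), Plin4 (0.13), Cidea (0.07), Pnpla2 (0.00), Pnpla3 (-0.14) and the ratio of Pnpla3 to Pnpla2 (-0.16), and the 8-week ratio of Plin2 to Plin5 was 0.27. Without the 5 libraries highest in squamous transcripts, it was 0.22, Cidea was at -0.25 and -0.11 against chow at 8 and 16 weeks, and the change from 8 to 16 weeks was 0.01 for Plin3, 0.14 for Cidea and 0.02 for Pnpla2. The cause of these turns was not tested.

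With each library left out in turn, the log2 changes that turned ran from -0.25 to 1.75 for Cidea and 0.00 to 0.44 for G0s2 at 8 weeks against chow, and from -0.13 to 1.29 for Cidea at 16 weeks. From 8 to 16 weeks they ran from -0.11 to 0.05 for Plin3, -0.77 to 0.11 for Plin4, -0.78 to 0.43 for Cidea, -0.18 to 0.02 for Pnpla2 and -0.11 to 0.19 for Pnpla3. At 8 weeks the ratio of Pnpla2 to G0s2 ran from -0.22 to 0.23, that of Plin2 to Plin5 from -0.23 to 0.22 and that of Pnpla3 to Pnpla2 from -0.02 to 0.69. None of the turned changes was called with all libraries. No paired analysis was possible because the replicate numbers are only the order of the samples. The droplet proteins had 5 rises and 2 falls at 8 and at 16 weeks against chow with total counts alone. Without 8-week replicate 3, which enters the shared spread, 3 rose and 11 fell at 16 weeks. Cidea and Pnpla3 had the fewest counts, 1 to 101 per library.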

Other observations

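As a description over the 21 libraries, which share scaling and the differences between groups, the genes whose log2 CPM was most like that of a member were listed among 13617 genes with a mean of at least 1 CPM. For Plin3 they were Oas1g (Pearson r = 0.972), an interferon-induced gene, and Ric8a (r = 0.971). For Plin5 they were Gm14719 (r = 0.971) and Msrb1 (r = 0.967), a methionine sulfoxide reductase gene, and for Plin4 Pomk (r = 0.906) and Cd79b (r = 0.901), a gene of the B cell receptor. Cideb was most like Rbp4 (r = 0.950), the plasma retinol carrier of hepatocytes, and Ech1 (r = 0.950), an enzyme gene of fatty acid oxidation. Cidec was most like Jam3 (r = 0.933), a junctional adhesion molecule, and Fundc2 (r = 0.932), and Pnpla2 like Cblc (r = 0.937) and Thap4 (r = 0.934). The closest genes to Plin2 were Rbm45 (r = 0.884) and Morf4l2 (r = 0.850). Cidea (Gsta1, r = 0.768, and Acyp2, r = 0.756), G0s2 (Gm11516, r = 0.719, and Brix1, r = 0.717) and Pnpla3 (Rnf225, r = 0.694, and Vcan, r = 0.668) had no gene as close.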
